A study of Homo sapiens with 30 samples.

Results

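The RNA described here was taken within hours of adding dTAG to Rh30 cells whose FOXO1 carries an FKBP degradation tag. The 6 samples were 2 in DMSO, the vehicle, 2 at 2 h of 500 nM dTAG and 2 at 6 h, out of 30 samples in the series. Rh30 is an established cell line of alveolar rhabdomyosarcoma, a childhood tumour of muscle type, and its PAX3-FOXO1 fusion gene is present in all 3 groups, as is the tag. Members were all genes of the table at these 3 conditions, with read-through gene names left out and changes present at both times set apart from changes at 1 time. Of 23262 genes listed, 11942 averaged 50 or more normalised counts across DMSO, 2, 6, 24 and 72 h of that line and had usable values in each of these 5 columns. The sources used here do not give whether the FOXO1-FKBP line is 1 clone, or which FOXO1 allele carries the tag.

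FOXO1 is a forkhead transcription factor that insulin and growth factor signalling hold in check: AKT phosphorylates it, and the phosphorylated protein leaves the nucleus. In the nucleus FOXO proteins turn on genes of fuel use, stress resistance, cell-cycle exit and autophagy, and in muscle they take part in the wasting program. dTAG is a bifunctional small molecule that brings an FKBP-tagged protein to a ubiquitin ligase, so that the proteasome destroys the protein while its mRNA is left in place. The FOXO1-FKBP line serves to separate loss of wild-type FOXO1 from loss of the fusion, which has a tagged line of its own. No untagged cells with dTAG were analysed here, so the compound and the loss of FOXO1 cannot be told apart, and FOXO1 protein was not among the measurements used.

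Each condition has 1 deposited column of estimated counts that pools its 2 samples, so values carry no replicate error. The 3 columns held 26555143 (DMSO), 26324319 (2 h) and 25999630 (6 h) estimated counts. As a measure of replicate spread, the gap between 2 libraries of 1 untreated group was taken for each gene in 5 such pairs, from parental Rh30 and 4 PAX3-FOXO1-FKBP clones, which were counted separately. That gap reached 1.5-fold for 0.507% of 11639 genes in the parental pair and for 4.42% to 15.6% in the clone pairs. All 12 rhabdomyosarcoma markers were measured, MYOD1 with 33772 normalised counts in DMSO, 31321 at 2 h and 33917 at 6 h. Of 15 T lineage and myeloid markers 0 reached the minimum, with summed counts of 103.4 (DMSO), 102 (2 h) and 85.7 (6 h). Of 19 B lineage markers 2 did, with sums of 2419, 2526 and 2389 in that order, mostly from FCRLA. Other lists were not silent. Of 12 fibroblast and matrix markers 9 reached the minimum (sums of 38859, 38499 and 36705). Of 12 pan-leukocyte markers 5 did (4952, 4784 and 4722), of 10 endothelial markers 4 (1268, 1279 and 1184) and of 12 epithelial markers 1 (194, 229.8 and 249.3).

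FOXO1 mRNA and the mRNAs of most genes of a FOXO-responsive list were close to DMSO in these hours. FOXO1 had 2640 normalised counts in DMSO and 2604 and 2626 at 2 and 6 h, a log2 change of -0.02 and -0.01. Its reads include the FOXO1 part of the fusion transcript, and dTAG acts on protein, so the mRNA does not check the labels. Values are levels in bulk RNA, in which fewer cells of a kind and less RNA per cell cannot be told apart. PAX3, whose reads include the other part of the fusion transcript, had 521 in DMSO, 493 at 2 h and 526 at 6 h. FOXO3, a close relative with overlapping targets, was at log2 changes of -0.10 and 0.00. FOXO4, another relative, had 397 counts in DMSO, 295 at 2 h and 413 at 6 h. Its change of -0.43 at 2 h was larger than the gap in all 5 untreated pairs, the widest being 0.14, which did not hold for FOXO1 or FOXO3.

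Among 28 measured genes of a FOXO-responsive list, PDK4 alone was 1.5-fold lower at 2 h and 0 were 1.5-fold higher. Over all genes tested the shares were 0.335% lower and 0.276% higher. PDK4, a pyruvate dehydrogenase kinase and a textbook FOXO1 target, had 304.8 normalised counts in DMSO, 167.6 at 2 h, 250.3 at 6 h, 288.9 at 24 h and 243.2 at 72 h. It was lowest in the 2 h column and below DMSO in each dTAG column. The log2 change at 2 h was -0.86 (95% counting interval -1.14 to -0.59), against a widest gap of 1.28 between untreated libraries. The list's median log2 change was -0.06 at 2 h and -0.02 at 6 h, beside -0.01 and 0.00 over all genes tested. At 2 h 20 of 28 members lay below 0, where 52.3% of all genes tested did, and at 6 h 15 of 28, where 51.3% did. The lean at 2 h was not particular to this list. Below 0 at 2 h were also 20 of 24 G2/M genes and 11 of 14 ERK feedback genes, but only 6 of 25 S phase genes. CCNG2, an unconventional cyclin of cell-cycle exit, was at -0.46 and -0.09 at 2 and 6 h. TXNIP, the thioredoxin-binding brake on glucose uptake, was at -0.34 and -0.38, with 3908 counts in DMSO, 3099 at 2 h and 2993 at 6 h. CITED2, a transcriptional coregulator, was at -0.41 and -0.11, while KLF2, a Kruppel-like factor, was at 0.21 and 0.52. Other members lay close to DMSO, where SESN1, INSR, BCL2L11 and CAT were between -0.15 and 0.00 at both times. Of the list, 9 genes did not reach the minimum, the atrophy ligases FBXO32 and TRIM63 among them.

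Promoter stretches with a FOXO motif are shown for FOXO4, TXNIP and BDNF, a neurotrophin gene described further on, which were below DMSO at 2 h. The motif searched was GTAAACA on both strands, in windows from 250 bases before to 50 after the annotated start (RefSeq, GRCh38.p14). It was found in 3 of 24 promoters of the FOXO-responsive list (BCL2L11, SEPP1 and TXNIP), a share of 12.5%, beside 2.09% of 9606 promoters of genes tested and 3.41% of all 27305 promoters. FOXO4 and BDNF are not on that list. Among genes at least 1.5-fold lower at 2 h only, 2 of 31 promoters held the motif (6.45%), BDNF being 1 of them. Among those higher at 2 h only, 0 of 19 did. A link between the motif and the change was not tested. The stretches of 80 bases lie at chrX:71095821-71095900 (plus strand), chr1:145996661-145996740 (minus strand) and chr11:27722084-27722163 (minus strand), 5′ to 3′ on the gene's strand, with the motif in capitals.
FOXO4: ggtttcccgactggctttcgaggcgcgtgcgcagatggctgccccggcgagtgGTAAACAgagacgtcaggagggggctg
TXNIP: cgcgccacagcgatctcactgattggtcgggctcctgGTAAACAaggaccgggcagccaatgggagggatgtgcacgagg
BDNF: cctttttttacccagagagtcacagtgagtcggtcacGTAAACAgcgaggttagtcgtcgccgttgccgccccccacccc
No such letters were found in the window of PDK4, and CCNG2 was not among the promoters with the motif.

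Few genes passed 1.5-fold at either time. Past 1.5-fold at 2 h were 33 of 11942 genes on the higher side (0.276%) and 40 on the lower side (0.335%). At 6 h, 27 were higher (0.226%) and 27 lower (0.226%). Later the same rule gave 130 higher (1.09%) and 68 lower (0.569%) at 24 h, and 85 higher (0.712%) and 179 lower (1.5%) at 72 h. At 2 h the nearest named genes to the threshold of 0.58 were ZNF554 (0.59) and BANP (-0.59) inside it, and KDM4D (0.58) and RNF217 (-0.58) outside. At 6 h they were TMEM42 (0.59) and PROX1 (-0.59) inside, and ZNF587 (0.58) and SOX5 (-0.57) outside. For all genes past the rule at 1 time only (at 2 h 31 higher and 38 lower, at 6 h 25 each way) the 95% counting interval left out 0, but counting error does not hold the spread between cultures and libraries.

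**Figure D1:**
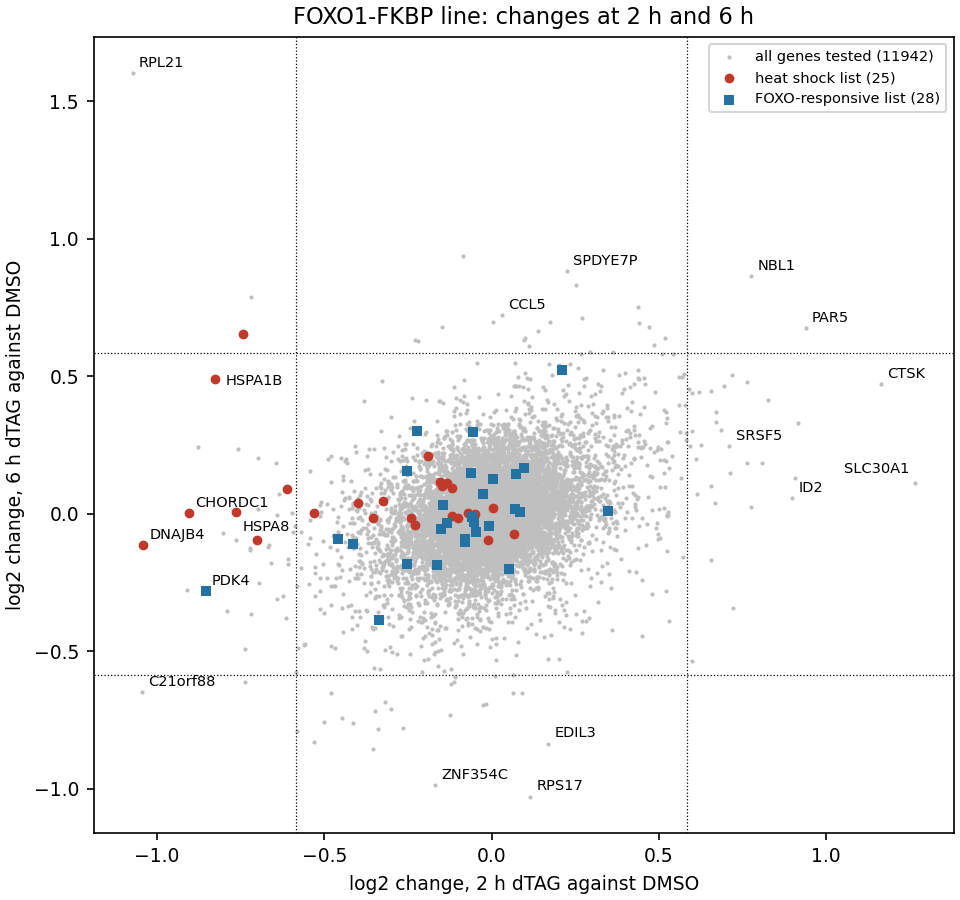
Log2 change against DMSO at 2 h (horizontal axis) and 6 h (vertical axis) for 11942 genes of the FOXO1-FKBP line, with the heat shock list in red and the FOXO-responsive list in blue squares; dotted lines mark 1.5-fold. Both axes share the DMSO column, few points pass both lines, and the red points spread to the left at 2 h. At 6 h the median of the red points is 0.00, with HSPA1A at 0.65 and HSPA1B at 0.49.

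Only 4 genes passed the rule in the same direction at both times, 2 higher (0.0167%) and 2 lower (0.0167%), and both changes share 1 DMSO column. NBL1, a secreted BMP antagonist, had 66.2 normalised counts in DMSO, 114.9 at 2 h and 122.1 at 6 h. It shares its exons with a read-through name, C1orf151-NBL1, which had 83.6 in DMSO, 18 at 2 h and 51.2 at 6 h, and the 2 names summed to 149.8 in DMSO, 133 at 2 h and 173.3 at 6 h. The sum thus changed by -0.17 and 0.21 on the log2 scale, where NBL1 by itself changed by 0.78 and 0.86. PAR5, a non-coding RNA of the Prader-Willi region, had 33 in DMSO, 65.2 at 2 h and 53.9 at 6 h, with log2 changes of 0.94 and 0.68. Its gap between untreated libraries reached 2.96.

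C21orf88, which RefSeq lists as an antisense RNA of B3GALT5, had 75.6 in DMSO, 35.6 at 2 h and 47.6 at 6 h, with log2 changes of -1.04 and -0.65. These were larger than all 5 untreated gaps, the widest at 0.46. At 24 h it was back at 65 and at 72 h it had 36.6. The sources used here do not say whether counting used strand, so its reads cannot be told from those of B3GALT5 (28.7 in DMSO, 24.3 at 2 h and 15.3 at 6 h).

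The clearest group at 2 h was that of heat shock chaperones, which were lower. Of 25 measured heat shock genes 7 were at least 1.5-fold lower at 2 h and 0 higher. Another 16 lay below 0, so that 23 of 25 were below DMSO, where 52.3% of all genes tested were. Past 1.5-fold at 2 h were 0.335% of all genes tested on the lower side and 0.276% on the higher side. Both HSPA1A and HSPA1B are among the 7, and they share nearly all of their sequence, so they are not separate measurements. The list's median log2 change was -0.23 at 2 h and 0.00 at 6 h. It was again below DMSO at 24 h, at -0.19, and was -0.07 at 72 h. All genes tested had medians of -0.004 at 24 h and -0.005 at 72 h. The value at 24 h was not particular to this list. Unfolded protein response genes were at -0.19 and ribosomal protein genes at -0.29, while lysosome and autophagy genes were at 0.12 and PI3-kinase and insulin signalling genes at 0.14. Heat shock genes encode proteins that keep others folded, and most are known to be switched on by the factor HSF1.

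DNAJB4, an HSP40 co-chaperone, had 872.9 normalised counts in DMSO, 422.8 at 2 h, 806.8 at 6 h, 803.9 at 24 h and 626.4 at 72 h, a log2 change of -1.04 at 2 h. CHORDC1, an HSP90 co-chaperone, had 1600, 853, 1603, 1270 and 1356 in the same order, a change of -0.90 at 2 h. HSPA8, the constitutive HSP70 and the most abundant of the 7, had 43898 in DMSO, 25873 at 2 h and 44103 at 6 h. For these 3 genes the 2 h column was the lowest of the 5, and the log2 changes at 6 h were -0.11, 0.00 and 0.01. DNAJB1, the stress-inducible HSP40, had 5562 in DMSO, 3420 at 2 h and 5205 at 6 h. HSPH1, an HSP110 exchange factor, had 8174, 5344 and 8707 in that order. Both were lowest at 2 h. The stress-inducible HSP70 genes HSPA1A and HSPA1B share nearly all of their sequence and are given as a sum, which was 2225 in DMSO, 1255 at 2 h, 3139 at 6 h, 1892 at 24 h and 2404 at 72 h. This sum was the lowest at 2 h and the highest at 6 h, with log2 changes of -0.82 and 0.50, and HSPA1A was the 1 gene of the list past 1.5-fold higher at 6 h.

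Other members differed less. BAG3, the HSP70 co-chaperone of protein clearance, was at -0.53 at 2 h and 0.00 at 6 h, and DNAJA1, another HSP40, was at -0.40 and 0.04. HSP90AA1 and HSP90AB1, the cytosolic HSP90 genes, were at -0.12 and -0.07 at 2 h, and CRYAB, a small heat shock protein of muscle, was at 0.07. JMJD6, DEDD2 and XBP1 are not on the list, and the first 2 were named after their values were seen. DEDD2 had 419.5 counts in DMSO, 247.3 at 2 h and 494.1 at 6 h, JMJD6 was at -0.42 and -0.04, and XBP1, a factor of the unfolded protein response, at -0.40 and 0.04.

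**Figure D2:**
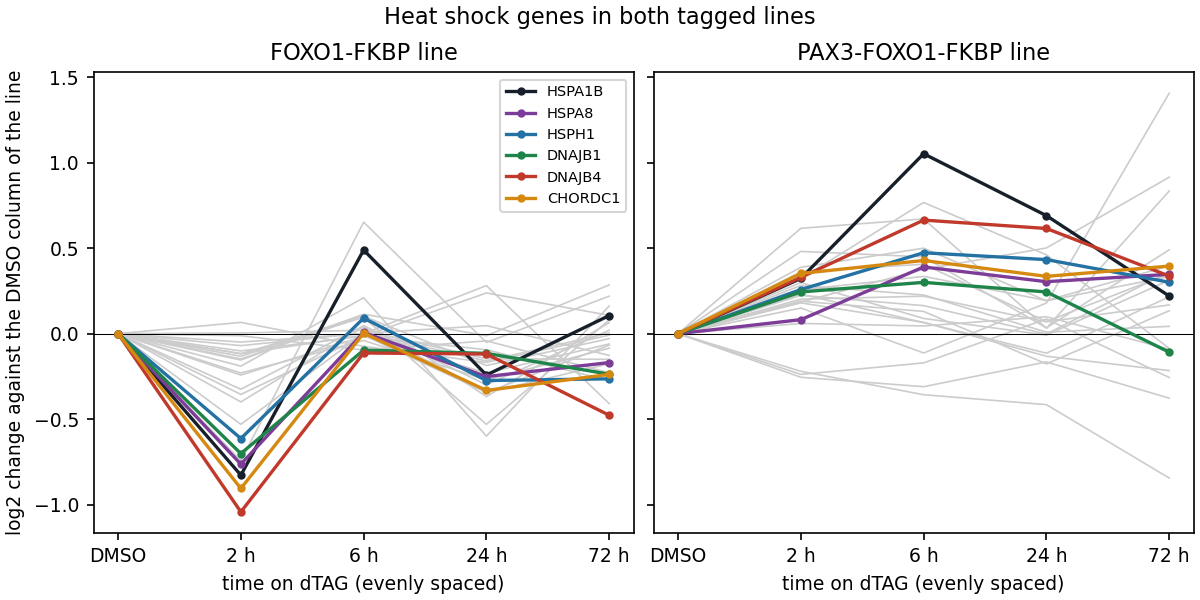
Log2 change of the 25 measured heat shock genes against the DMSO column of the line at each time, in the FOXO1-FKBP line (left) and the PAX3-FOXO1-FKBP line (right), with 1 line per gene and 6 genes in colour. In the left panel the coloured genes lie between -0.61 and -1.04 at 2 h, and in the right panel all 6 lie above 0 at 2 h.

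Promoters of the chaperone genes lower at 2 h are shown where they hold paired heat shock units. The letters searched were TTCNNGAA or GAANNTTC for 2 units, and either of these followed by NN and a further TTC or GAA in turn for 3 units, on both strands, so a match to 3 units also counts as 2. Of the 7 genes that were 1.5-fold lower, 4 had 2 units (57.1%) and 2 had 3 units (28.6%), beside 36.4% and 18.2% of 22 heat shock promoters. Over 9606 promoters of genes tested the shares were 9.87% and 0.291%, and over all 27305 promoters 13.7% and 0.487%. HSPA1A and HSPA1B, whose stretches below are nearly the same, are both among the 4. A link between the units and the change was not tested. The stretches come from chr11:90223065-90223144 (minus strand), chr11:123062287-123062366 (minus strand), chr6:31815401-31815480 (plus strand) and chr6:31827597-31827676 (plus strand) of GRCh38.p14 (RefSeq), and units are in capitals.
CHORDC1: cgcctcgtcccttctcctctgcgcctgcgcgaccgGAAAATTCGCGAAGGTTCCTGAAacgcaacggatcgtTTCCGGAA
HSPA8: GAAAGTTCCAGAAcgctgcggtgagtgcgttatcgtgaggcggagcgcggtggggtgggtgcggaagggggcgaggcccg
HSPA1A: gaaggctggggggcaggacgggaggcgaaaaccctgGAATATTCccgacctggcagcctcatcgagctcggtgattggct
HSPA1B: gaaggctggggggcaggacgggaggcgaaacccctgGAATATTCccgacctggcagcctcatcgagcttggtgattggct
The CHORDC1 and HSPA8 stretches hold units in a row of 3 or more, and those of HSPA1A and HSPA1B hold 1 pair. No match was found in the windows of DNAJB4, DNAJB1 and HSPH1.

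The other genes lower at 2 h had no common role among the lists used. BDNF, whose product supports neurons, had 75.4 normalised counts in DMSO, 39.2 at 2 h and 61.9 at 6 h, a log2 change of -0.91 at 2 h, wider than the widest untreated gap of 0.61. C6orf1 was at -0.88, the zinc finger gene ZNF546 at -0.79 and HELB, a DNA helicase, at -0.76 at 2 h. IKZF2, the transcription factor Helios, was at -0.72 and PIK3CB, the beta catalytic subunit of PI3-kinase, at -0.64. SDPR, a caveola coat protein, was also at -0.64 and CTGF, a matrix protein and YAP target, at -0.61. CTGF, the highest of these 8 in DMSO, had 154.4 in DMSO, 100.5 at 2 h and 135.8 at 6 h, so these changes rest on few reads. PIK3CB was the 1 gene past the rule of 23 measured PI3-kinase and insulin signalling genes (median -0.04 at 2 h and -0.05 at 6 h).

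Of the genes higher at 2 h, SLC30A1 stood first. SLC30A1, the zinc exporter of the plasma membrane and a target of the metal-sensing factor MTF1, had 56.4 normalised counts in DMSO, 138.2 at 2 h, 61.1 at 6 h, 81.8 at 24 h and 73.9 at 72 h. The log2 change at 2 h was 1.26 (95% counting interval 0.84 to 1.77), above the widest untreated gap of 0.75. SLC39A10, a zinc importer, was below DMSO, with 2235 in DMSO, 1506 at 2 h and 2133 at 6 h. The metallothionein genes MT1X and MT2A, which also answer to MTF1, were at 0.00 and -0.06 at 2 h. Of 9 measured metal-responsive genes, SLC30A1 alone passed 1.5-fold at 2 h, the list's median being -0.03.

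SRSF5, a splicing factor of the SR family, had 5030 in DMSO, 8232 at 2 h, 5971 at 6 h, 4615 at 24 h and 6363 at 72 h, a change of 0.71 at 2 h and 0.25 at 6 h. SRSF6, of the same family, had 8237, 11870, 8281, 7780 and 8240 in the same order, a change of 0.53 at 2 h and of -0.08 to 0.01 at the other times. The family was looked at after these values were seen: SRSF5 alone of its 12 measured genes passed 1.5-fold, the median was 0.07 at 2 h, and all 12 lay above 0, where 52.3% of all genes tested were below. RBM3 and CIRBP, RNA-binding proteins known to be induced by mild cold, were at 0.39 and 0.25 at 2 h.

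ID2, an inhibitor of MyoD-type factors, had 77.4 in DMSO, 146.1 at 2 h and 80.7 at 6 h, a change of 0.90 at 2 h. Its relatives ID1 and ID3, known BMP targets, were at 0.47 and 0.27 at 2 h and at 0.14 and -0.04 at 6 h, and ATOH8, another helix-loop-helix gene, at 0.43 and 0.05. These genes also varied between untreated libraries, with widest gaps of 1.97 for ID2, 2.91 for ID1, 2.23 for ID3 and 1.05 for ATOH8. CTSK, the lysosomal protease cathepsin K, had 32.9 in DMSO, 76.1 at 2 h and 46.3 at 6 h. HFM1, a meiotic helicase, was at 0.91, MFSD8, a lysosomal membrane protein, at 0.76, and SALL1, a zinc finger transcription factor, at 0.76 at 2 h. LRRC48, a gene of the ciliary dynein regulatory complex, was at 0.83 and C9orf116 at 0.81. The immediate-early factor EGR1 was at 0.60 and the ERK phosphatase DUSP5 at 0.61 at 2 h. Of 23 measured immediate-early genes, EGR1 was the 1 past the rule higher and CTGF the 1 lower at 2 h, with list medians of -0.05 at 2 h and -0.06 at 6 h.

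Of 25 measured ATF4-responsive genes, which answer to amino acid stress, 0 passed the rule at 2 h or 6 h. Few of all genes tested did: 0.276% higher and 0.335% lower at 2 h, and 0.226% each way at 6 h. At 2 h 5 lay below 0 and 20 above, where 52.3% of all genes tested were below, the median being 0.16 at 2 h and 0.02 at 6 h. SESN2, a stress-induced inhibitor of mTORC1, had 362 in DMSO, 522 at 2 h and 435 at 6 h. SLC7A11, the cystine importer, was at 0.52, ATF5 at 0.38 and the cysteinyl-tRNA synthetase CARS at 0.33 at 2 h. CHAC1, a glutathione-degrading enzyme, had 33.5 in DMSO, 77.2 at 2 h and 41.6 at 6 h but a mean below the minimum.

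**Figure D3:**
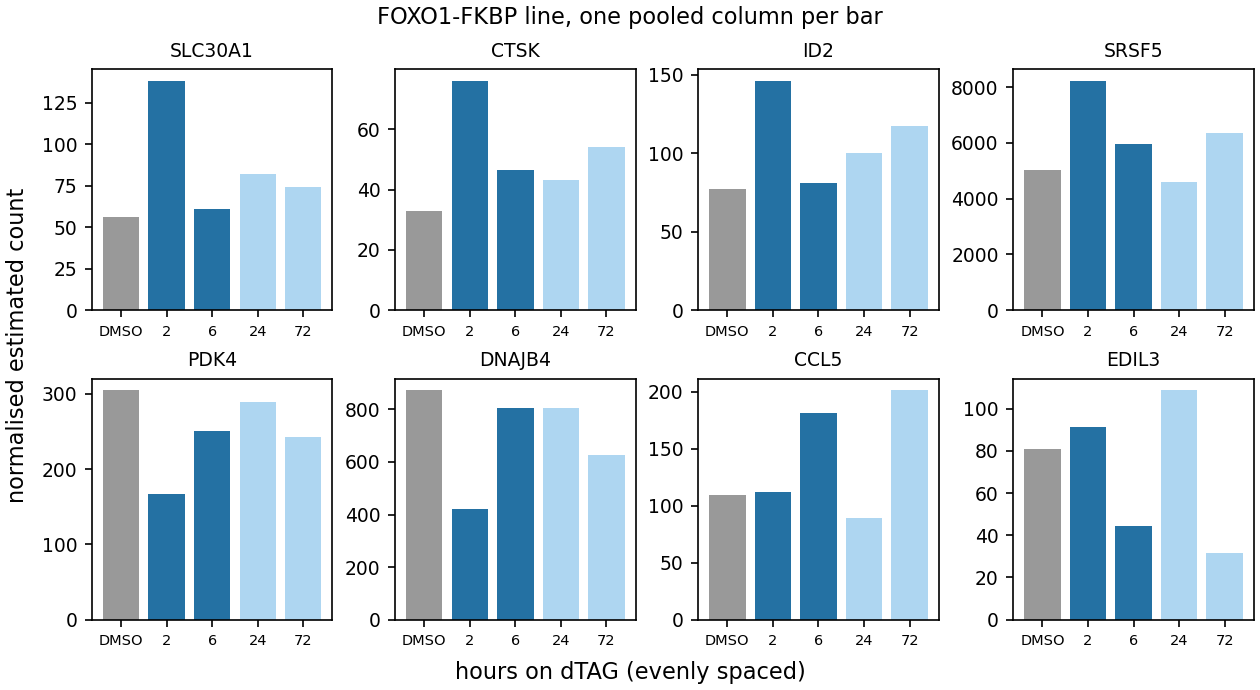
Normalised estimated counts of 8 genes in the FOXO1-FKBP line, 1 bar per pooled column, with DMSO in grey, 2 and 6 h of dTAG in dark blue and 24 and 72 h in light blue; each panel has its own axis from 0. SLC30A1, CTSK, ID2 and SRSF5 are highest at 2 h, PDK4 and DNAJB4 lowest at 2 h, and CCL5 and EDIL3 stand away from DMSO at 6 h.

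Tests of the columns called few of these genes. Against the other 4 columns of the line, edgeR's quasi-likelihood test called 0 of 14042 genes at 2 h (0%), with 303 at an unadjusted p under 0.05, and DESeq2 also called 0. The 6 h column against the other 4 gave 0 calls (0%), with 57 at an unadjusted p under 0.05, and DESeq2 called 1, RPL21. Against DMSO and 6 h only, a fit added after the data were seen, edgeR's quasi-likelihood test called 15 genes higher (0.108%) and 25 lower (0.18%) at 2 h. These include all 7 chaperone genes above, with BAG3, DNAJA1, PDK4, SLC39A10, SLC30A1, ID1, ID2, ATOH8, SRSF5, SRSF6, CHAC1, CCNG2, XBP1 and JMJD6. That fit has 1 residual degree of freedom, and its p-values measure scatter between pooled columns. It was added once these genes had been seen to differ at 2 h and to lie near DMSO at 6 h, so it restates those values and is no independent support for them.

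With 2 h and 6 h as 1 early stage against DMSO, the edgeR quasi-likelihood test called 5 genes higher (0.036%) and 3 lower (0.0216%) of 13886. SRSF5 rose by 0.50 on the log2 scale (adjusted p = 0.0064) and DNAJB4 fell by 0.50 (adjusted p = 0.0275), although its 6 h column lay near DMSO. H3F3A and HNRNPA1P10, also called lower, and SPDYE7P, SMN2 and RPL21, called higher, share reads with near-identical copies. LOC100190986 was the last of those called higher. At an unadjusted p under 0.05 were 283 genes. DESeq2 called 0 of these genes, and so did the edgeR test with all 5 columns in 3 stages, so neither SRSF5 nor DNAJB4 was called in every fit.

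**Figure D4:**
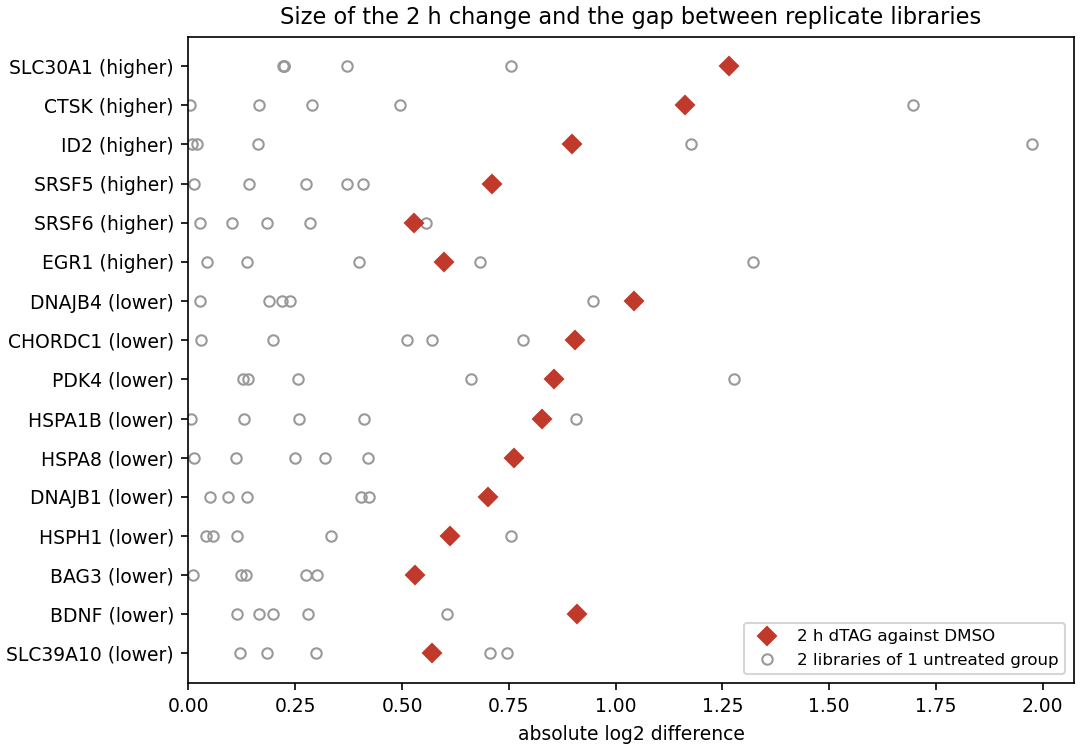
Absolute log2 difference for 16 genes named above, with the 2 h change against DMSO as red diamonds and the gaps between 2 libraries of each of 5 untreated groups as open circles; the bracket gives the direction at 2 h. The diamond lies beyond all circles for SLC30A1, SRSF5, DNAJB4, CHORDC1, HSPA8, DNAJB1, BAG3 and BDNF, and within them for CTSK, ID2, EGR1, PDK4, HSPA1B, HSPH1, SRSF6 and SLC39A10.

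Across the 38 genes lower at 2 h only, the gap between untreated libraries was at least as wide as the change in 1 or more of 5 pairs for 17, and among the 31 genes higher at 2 h only for 19. At 6 h this held for 18 of 25 higher and 23 of 25 lower genes. Over 11923 genes tested that have these pairs, 29.8% had a gap of at least 1.5-fold. That limit is looser than the one for the sets, where each gap was set against the gene's own change of 1.5-fold or more. By the rule these sets are large at 2 h and below 1.5-fold at 6 h, so their medians are given as a description. Genes higher at 2 h only had a median log2 change of 0.68 at 2 h and 0.25 at 6 h, and those lower had -0.70 and -0.10. These 2 values share the DMSO column.

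At 6 h the genes past 1.5-fold were a mixture of low-count genes, copies that share reads and long transcripts. CCL5, a chemokine, had 109.4 normalised counts in DMSO, 111.7 at 2 h, 181.5 at 6 h, 89.3 at 24 h and 201.3 at 72 h, a log2 change of 0.72 at 6 h. OPRD1, the delta opioid receptor, had 92.3, 104.5, 150.9, 204.4 and 137.6 in the same order, a change of 0.70 at 6 h. KIAA1919 was at 0.83 at 6 h and was also above DMSO at 24 h (0.95) and 72 h (0.50). POLR2J2, SPDYE5, SPDYE6, CBWD3 and TICAM2 complete the 8 largest and belong to families of near-identical genes or overlap a read-through name.

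Among genes lower at 6 h, ZNF354C, a zinc finger gene, had 104.9 in DMSO, 93.2 at 2 h, 52 at 6 h, 131.7 at 24 h and 27.4 at 72 h. EDIL3, a secreted integrin ligand, had 80.8, 91.1, 44.4, 108.8 and 31.5 in the same order. NCOA2, a nuclear receptor coactivator, had 161, 110.8, 89.6, 259.1 and 46. In these 3 genes the order of the columns was the same from 6 h on, low at 6 h, above DMSO at 24 h and lowest at 72 h. LGR5, a receptor for R-spondins chosen after its values were seen, had 176.8, 138.5, 106.9, 205.4 and 93 in that order. KIAA1958 was at -0.76 and PLD1, a phospholipase, at -0.76 at 6 h.

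Transcript length went with the change at 6 h. Across 11552 genes, which are not independent replicates, Spearman's rho between transcript length and the log2 change was -0.03 at 2 h, -0.35 at 6 h, 0.30 at 24 h and -0.48 at 72 h. Of 10 groups ordered by length, the shortest (median 1264 bases) had a median change of 0.09 at 6 h and the longest (median 9750) -0.07. The 25 genes lower at 6 h only had a median length of 5834 bases, against 3761 over all genes tested, and a median change of 0.21 at 24 h and -0.91 at 72 h. Of 83 ribosomal protein genes, 81 were above 0 at 6 h, with a median of 0.14, and 16 at 2 h. After a correction for length and GC content, 20 genes were higher and 26 lower at 6 h. The part of library make-up in the 6 h differences was not tested.

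**Figure D5:**
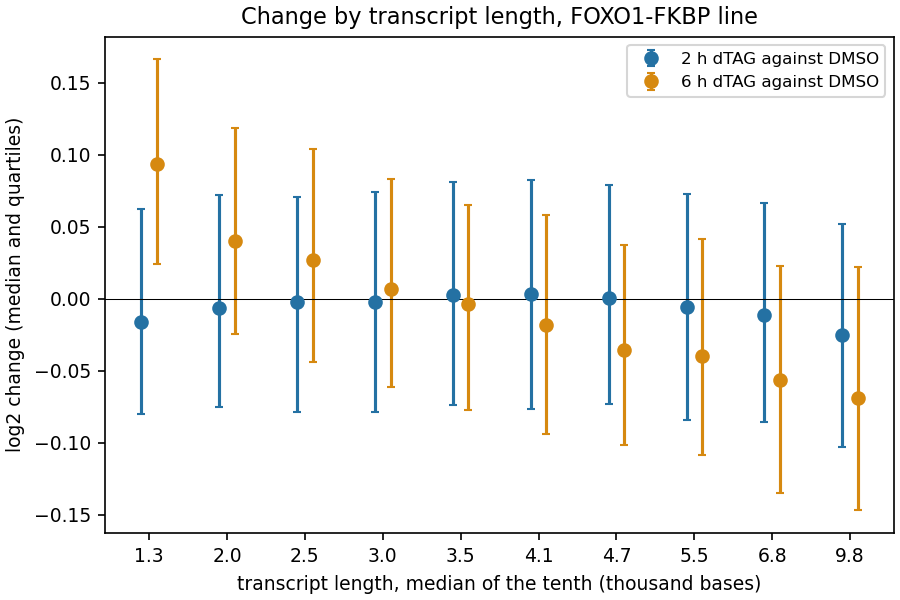
Median log2 change against DMSO, with quartiles as bars, in 10 groups of genes ordered by transcript length, at 2 h (blue) and 6 h (orange) of dTAG in the FOXO1-FKBP line. The 6 h medians run from 0.09 in the shortest group to -0.07 in the longest, while those at 2 h lie between -0.02 and 0.00.

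Several of the largest values belong to genes whose reads other copies share, and most of the summed counts were close to DMSO. H3F3A, a histone H3.3 gene, had 2233 in DMSO, 1637 at 2 h and 1334 at 6 h, and its listed copy H3F3AP4 26940, 27237 and 30512, a sum that changed by -0.01 and 0.13. HNRNPA1P10 had 12276, 9601 and 6779 in that order, while HNRNPA1 with its listed copies changed by -0.05 and 0.04. RNF5, at -0.73 at 6 h, changed by 0.11 with its copy, and FSBP, at -0.78, by -0.03 with the overlapping gene RAD54B. SMN2 had 2.34 in DMSO, 61.6 at 2 h and 1.92 at 6 h, while SMN1 with SMN2 changed by -0.03 and 0.30. The SPDYE family was the exception: 6 genes of it summed to 981.4 in DMSO, 1098 at 2 h, 1719 at 6 h, 1521 at 24 h and 1861 at 72 h, a change of 0.81 at 6 h.

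Programs of the tumour cell were close to DMSO. Published PAX3-FOXO1 targets (32 measured) had medians of -0.02 at 2 h and -0.08 at 6 h, with 0 genes past 1.5-fold at either time. Muscle contractile and differentiation genes (42 measured) were at 0.04 and -0.01, also with 0 past the rule. Over all genes tested the shares past the rule were 0.276% higher and 0.335% lower at 2 h, and 0.226% each way at 6 h. A count of 0 in lists of this size therefore says little about their members. The fusion target FGFR4, a receptor kinase, had 26251 in DMSO, 24477 at 2 h and 24117 at 6 h, and the muscle factor MYOG 9415, 10359 and 9908. S phase genes (25 measured) had medians of 0.05 and -0.02 and G2/M genes (24) of -0.06 and -0.03. CCNE2, the cyclin of S phase entry, was at 0.38 at 2 h and 0.02 at 6 h. Medians of the p53, NRF2, hypoxia, cholesterol, interferon, NF-kB, lysosome, circadian, MYC and Notch lists lay between -0.07 and 0.08 at both times, and so did that of the unfolded protein response. Myogenic transcription factors (15 measured) had medians of 0.02 and 0.00, and short-lived regulatory mRNAs (30) of 0.02 and -0.05, with ID2 past the rule at 2 h in both. ERK feedback genes were at -0.10 and -0.09, with 1 of 14 past the rule at 2 h, DUSP5. YAP/TEAD-responsive genes were at -0.06 and -0.10, and 42 ubiquitin-proteasome genes at 0.01 and 0.08.

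In the PAX3-FOXO1-FKBP line, which has its own DMSO column, the same compound was followed by more differences. There 250 of 12289 genes passed 1.5-fold on the higher side (2.03%) and 246 on the lower side (2%) at 2 h, and 349 (2.84%) and 489 (3.98%) at 6 h. The 24 heat shock genes measured there had medians of 0.25 at 2 h and 0.32 at 6 h in that line, DNAJB4 being at 0.33 and 0.66 and HSPA8 at 0.08 and 0.39. Of the 34 genes lower at 2 h only that were also measured there, 21 were below 0 at 2 h and 2 passed 1.5-fold lower. Of 26 such genes higher at 2 h only, 15 were above 0 and 4 passed, ID2 (0.70) among them. The median at 2 h in that line was -0.04 for the lower set and 0.24 for the higher set. It was -0.004, close to 0, over the 11729 genes tested in both lines. SLC30A1 was at 0.46 and SRSF5 at 0.45 there at 2 h, PDK4 at -0.44 and SLC39A10 at -0.69. Published targets were at -0.34 and -0.76 in that line, and muscle genes at 0.51 and 0.54.

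The difference between the lines was tested in 1 model over both, with 2 and 6 h together against DMSO. The edgeR quasi-likelihood test called 0 of 14608 genes (0%), with 894 at an unadjusted p under 0.05, while DESeq2 called 26, FGFR4 among them. The difference in CHORDC1 was -0.76 (FOXO1-FKBP minus PAX3-FOXO1-FKBP, log2) with an adjusted p of 0.820, and in HSPA8 -0.56 with 0.831. Summed B lineage markers at 2 h in the PAX3-FOXO1-FKBP line were 4571, against 2954 in its DMSO column, and their part in the differences was not tested.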

How the data were processed

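Total RNA of Rh30 cells was sequenced. Bowtie2, Cuffdiff 2.1.1, Trimmomatic 0.32 and the build hg19 are listed in the submitters' processing notes, without their roles. For the time course the authors deposited 1 column per condition, per the file headers, which is taken to pool its 2 samples. Of these deposited values 72.8% in the FOXO1-FKBP table are not whole, so they are read as estimated counts. For parental cells and clones the authors deposited whole-number counts, 1 column per library. The sources used here do not give any scaling of the estimated counts.

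Estimated counts were scaled with TMM factors, and log2 changes used a prior count of 2. Members needed 1.5-fold and a mean of at least 50. The 120 read-through names were left out of all counts, and so were 6 further genes with a 0 beside at least 10 counts elsewhere. For tests, estimated counts were rounded and fitted with edgeR 4.0.16 (quasi-likelihood, filterByExpr, Benjamini-Hochberg, R 4.3.3), tested on simulated data first. A fit with 1 column against 4 has 3 residual degrees of freedom, the early term 1 and the line difference 2. Exact conditional (Clopper-Pearson) intervals cover counting error only. Alternatives were library totals, DESeq2, other folds, minimum means and prior counts, and a lowess correction for GC content and transcript length. Lengths came from GENCODE v29 by symbol (96.7% of genes tested matched).

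Members, 35 lists and tests were chosen with earlier results of these data known. Named genes are FOXO1, PAX3, those past the rule at both times, the 8 largest each way at 1 time only, the 5 lowest adjusted p each way of each fit, and 4 per list by mean change. LOC, antisense, small RNA, pseudogene, histone, ribosomal protein and read-through names were left out. Genes named outside this rule were chosen after their values were seen: MYOD1, HSPA1A, HSPH1, BAG3, DNAJA1, the HSP90 genes, CRYAB, SRSF6, RBM3, CIRBP, ID3, ATOH8, CHAC1, JMJD6, DEDD2, LGR5, MT2A, IKZF2, SDPR, SESN1, INSR, BCL2L11, CAT and the copies that share reads. Of the genes lower at both times, 1 is not reported here.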

Additional observations from a re-analysis of the deposited data

Results flagged for a closer look

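Among the genes named by the rule, the lines went opposite ways by at least 0.32 on the log2 scale in every early column in 2 genes. With no such minimum more genes were opposite, DNAJB4 among them. The difference was not tested per gene with replicates, since each condition has 1 pooled column. CASQ2, the calcium buffer of the cardiac and slow sarcoplasmic reticulum, was at log2 changes of -0.42 and -0.42 at 2 and 6 h in the FOXO1-FKBP line and at 0.81 and 0.35 in the PAX3-FOXO1-FKBP line, a mean difference of -0.998. H3F3A was at -0.45 and -0.74 in the FOXO1-FKBP line and at 0.60 and 0.70 in the PAX3-FOXO1-FKBP line, a mean difference of -1.245. Its reads are shared with H3F3AP4, and the opposite directions of this size were not present in their sum. That sum changed by -0.01 and 0.13 in the FOXO1-FKBP line and by 0.14 and 0.16 in the PAX3-FOXO1-FKBP line. In the edgeR quasi-likelihood fit over both lines the adjusted p was 0.567 for H3F3A.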

How the results depend on the processing

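No paired analysis was possible because each time-course column pools its 2 samples and carries no replicate number. Scaling by library totals or DESeq2 size factors, a prior count of 0.5 and the GC and length correction kept every count of genes past the rule within 1.5 times. Of named values at 2 and 6 h, 9 of 302 changed sign with library totals and 12 of 300 with the GC and length correction, 0 of them past 1.5-fold and none above 0.086 (log2) in size, HSPA8 at 6 h (0.01, against -0.02 and -0.02), CHORDC1 and PAX3 at 6 h with totals and FOXO1 and XBP1 at 6 h with the correction among them. With a prior count of 0.5 there were 0.

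Counts at other settings are given in the order higher and lower at 2 h, higher and lower at 6 h, higher and lower at both times. At 2-fold they were 2, 3, 1, 1, 0 and 0. With a minimum mean of 100 they were 12, 20, 9, 12, 1 and 0, and with 10 they were 209, 160, 150, 133, 57 and 19. Without genes that share reads, added after the data were seen, 17 genes were higher at 6 h, 1 was higher and 1 lower at both times. The early term called 8 genes, against 0 with DESeq2, 0 with no filter on low counts, 0 with 5 columns in 3 stages and 3 without genes that share reads. Against DMSO and 6 h only, 40 genes were called at 2 h in place of 0. DESeq2 called 1 gene at 6 h and 26 in the difference between lines, in place of 0 and 0. The cause of these differences between settings was not tested. Depth limits the smaller genes: a mean count under 100 was found in 20 of 31 genes higher and 18 of 38 lower at 2 h only, and in 17 of 25 higher and 13 of 25 lower at 6 h only.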
